A study of Mus musculus with 18 samples.

Results

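*Nipa1* and *Pard6b* are 2 of the 45706 genes listed in the deposited RNA-seq tables of OT-I CD8+ T cells, and both were among the 12255 genes that passed the filter on low counts. They were chosen from measured values, since they had the largest fitted rises with ibrutinib among the genes called higher in single peptide stimulated cells, and *Nipa1* had also risen in repeat peptide stimulated cells. Those differences are therefore given as descriptions, without a test. OT-I cells carry a transgenic T cell receptor for a peptide of ovalbumin (OVA). They were isolated from spleens, and all 18 cultures were cells of this kind that met the peptide at the start. Repeat peptide stimulated cells were given peptide daily for 5 days, in IL-15 and IL-7, and were kept with it until day 8, a culture that serves as an *in vitro* model of exhaustion. Single peptide stimulated cells met it only at the start and were then washed and rested. From day 5 to day 8 the cells received either 1 µM ibrutinib, a covalent inhibitor of BTK and of other kinases, or its solvent DMSO. A single dose and a single harvest day were used, so no dose or time course was measured. There were 4 libraries of repeat peptide cells with DMSO, 5 of repeat peptide cells with ibrutinib, 5 of single peptide cells with DMSO and 4 of single peptide cells with ibrutinib. The strain entry of the labels gives wild type for all of them, while the genotype entry names a *btk* knockout for the cultures lettered B, C, D and E here and holds other texts for A and F. No label calls this entry an experiment. It is called one here because libraries with the same entry varied together, and which genotype the cells of B to E had cannot be told from the labels. All groups have a library from each of A to D, whereas E is found only among the repeat ibrutinib and F only among the single DMSO libraries. Between 23445922 and 51995372 expected counts were summed over the genes of a library.

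*Nipa1* encodes a membrane protein of endosomes and of the cell surface that carries magnesium ions, and it is also known to promote the uptake and breakdown of receptors for bone morphogenetic proteins (BMP). Mutations of the human gene cause a hereditary spastic paraplegia, and the gene has been studied mostly in neurons. *Pard6b* encodes PAR6 beta, a scaffold of the PAR polarity complex, in which a PAR6 protein holds an atypical protein kinase C (aPKC) next to PAR3 and responds to the GTPases CDC42 and RAC1. The complex is best known for setting up the apical side of epithelial cells. In T cells, polarity proteins take part in migration, in the contact with antigen presenting cells and in the unequal sharing of proteins at division.

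In GRCm38 (GENCODE M21), *Nipa1* (ENSMUSG00000047037) lies at chr7:55977567-56019954 on the minus strand with 5 exons, and *Pard6b* (ENSMUSG00000044641) lies at chr2:168081004-168101203 on the plus strand with 3 exons. Each is represented by 1 transcript in the deposited tables, of 3183 bases for *Nipa1* and 3399 bases for *Pard6b*. The 250 bases before the start of *Pard6b* are shown because a short motif recurs in them, unlike in most promoters. The sequence is the plus strand of chr2:168080754-168081003 (RefSeq, GRCm38.p6), and capitals mark the matches to the motifs searched, which are the EGR core GTGGGCG and the E-box CACGTG.

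Pard6b promoter: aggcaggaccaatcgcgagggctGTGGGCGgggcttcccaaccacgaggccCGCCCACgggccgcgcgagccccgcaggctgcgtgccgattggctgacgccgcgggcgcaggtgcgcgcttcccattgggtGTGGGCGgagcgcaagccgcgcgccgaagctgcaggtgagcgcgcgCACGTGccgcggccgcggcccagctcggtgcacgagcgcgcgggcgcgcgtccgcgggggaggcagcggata

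The EGR core occurred 3 times in it, once on the reverse strand. At least 1 such match was found in 8.04% and 3 or more in 0.144% of 27025 promoter windows of 300 bases. The E-box occurred once, and 7.24% of the windows hold one. In these 250 bases 77.6% were G or C, and they held 43 CpG dinucleotides, against a median of 6.0 over all promoters, of which 99.3% held fewer. The shares of windows with matches are over promoters of any composition, and none was computed for promoters as rich in G and C. The other motifs searched on both strands, which were FOXO (GTAAACA), TCF/LEF (CTTTGA), NFAT (TGGAAA), AP-1 (TGANTCA), the cAMP response element (TGACGTCA), ETS (CCGGAAG) and an interferon-stimulated element core (GAAANNGAA), had no match in the 300-base window of *Pard6b*. In that of *Nipa1* none of the 9 motifs matched. GENCODE places the start of *Nipa1* 354 bases upstream of the RefSeq start, so that window lies within the first GENCODE exon and its letters are not shown. Such matches describe the letters only.

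The cells carried the markers of their label. The summed TPM (the authors' transcript level, which is scaled to gene length) of 5 CD8 T cell markers ranged from 1670 to 2860 over the libraries. Of the 5 neuronal markers, *Nefl* was at 0 in all libraries, and the sum of the list was at most 0.14 TPM. Of the 5 epithelial markers, *Krt19* was at 0 in all libraries and *Krt8* was at most at 0.05 TPM. The epithelial sum was nevertheless higher in repeat (4.28 to 8.69 TPM) than in single peptide cells (0.59 to 2.22 TPM), and it was carried by *Epcam*. The B cell sum, carried by *Cd79b*, ranged from 1.06 to 7.1 TPM and the myeloid sum from 0.12 to 6.23 TPM. The part of such cells in the values below was not tested. These are bulk samples, so fewer cells that express a gene and less RNA per cell cannot be told apart.

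*Nipa1* was lowest in repeat peptide cells with DMSO, where its normalized count (the count scaled to the mean library size) was 51.18, 45.41, 55.41 and 39.49 in experiments A, B, C and D. With ibrutinib, repeat peptide cells had 226.8, 242.3, 201.4, 201.2 and 290.4 in experiments A to E. Every ibrutinib library stood above every DMSO library, and the lowest ibrutinib value was far above the highest DMSO value. In single peptide cells with DMSO it was 191.5, 135.2, 192.4, 176.8 and 116.3 in experiments A, B, C, D and F. With ibrutinib single peptide cells had 360.3, 340.9, 435.9 and 402.6 in experiments A to D. The ranges of the 4 groups did not overlap in normalized counts, and the order of the means was repeat DMSO (47.87 ± 6.928, SD, n = 4), single DMSO (162.5 ± 34.72, n = 5), repeat ibrutinib (232.4 ± 36.82, n = 5) and single ibrutinib (384.9 ± 42.61, n = 4). Repeat ibrutinib and single DMSO were the closest neighbours in this order. Per length these are low levels, since the mean TPM was 0.698, 2.09, 3.12 and 4.63 in that order, and 10.1% of the tested genes had a lower mean TPM than *Nipa1* in repeat DMSO cells and 30.5% in single ibrutinib cells. In TPM the ranges of single DMSO (1.59 to 2.82) and repeat ibrutinib cells (2.6 to 3.9) did overlap. In repeat DMSO cells only 37 to 74 reads were counted per library. The coefficient of variation there was 14.5%, close to the 14.1% that counting error alone gives at this depth, whereas it was 15.8%, 21.4% and 11.1% in the repeat ibrutinib, single DMSO and single ibrutinib groups, against 6.5%, 8.3% and 4.99% from counting.

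*Pard6b* had a flatter profile. Its normalized count was 200.1, 160.9, 137.8 and 142.0 in repeat DMSO cells (A to D) and 205.0, 254.8, 141.0, 187.3 and 174.9 in repeat ibrutinib cells (A to E). These ranges overlapped, and the ibrutinib value of experiment C lay below 3 of the 4 DMSO values. Single DMSO cells had 149.3, 155.8, 145.3, 136.1 and 131.6 (A, B, C, D and F), which was the tightest group of either gene, with a coefficient of variation of 6.82% against 8.85% from counting alone. Single ibrutinib cells had 296.8, 300.7, 222.6 and 278.3 (A to D), all above the single DMSO libraries. The means were 143.6 ± 9.794 (SD, n = 5) in single DMSO, 160.2 ± 28.43 (n = 4) in repeat DMSO, 192.6 ± 41.91 (n = 5) in repeat ibrutinib and 274.6 ± 36.02 (n = 4) in single ibrutinib cells. The first 3 of these overlapped with their neighbour in the order, and repeat ibrutinib also reached, in experiment B, above the lowest single ibrutinib library. Mean TPM was 1.73, 2.17, 2.47 and 3.15 in that order, so *Pard6b* stood above *Nipa1* per length only in repeat DMSO cells.

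**Figure D1:**
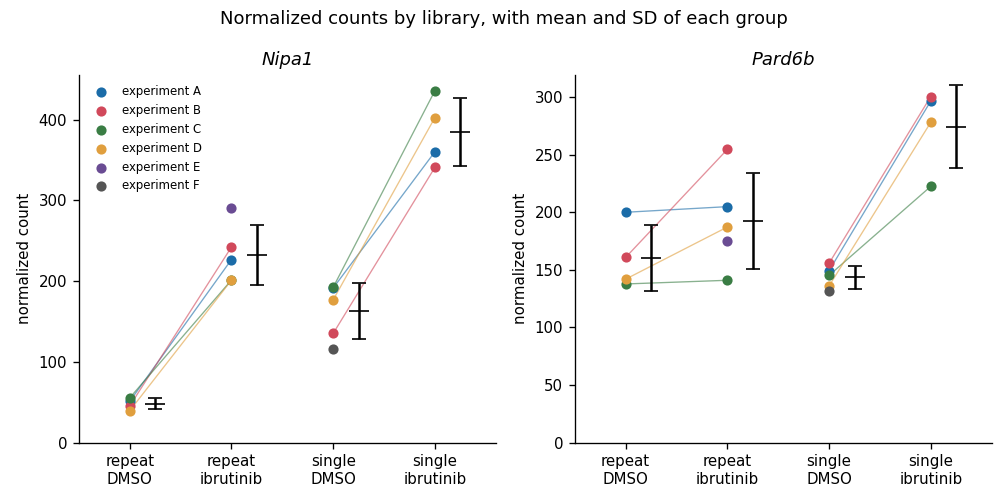
Normalized counts (vertical axes, starting at 0) of *Nipa1* and *Pard6b* in the 18 libraries by group. Points are libraries coloured by experiment, thin lines join the DMSO and ibrutinib libraries of an experiment within a kind of stimulation, and black marks are the mean ± SD of the group (n = 4 or 5). The groups of *Nipa1* do not overlap in normalized counts, from 39.49 to 55.41 in repeat DMSO up to 340.9 to 435.9 in single ibrutinib cells, whereas for *Pard6b* the single ibrutinib libraries reach highest (222.6 to 300.7) and the repeat groups overlap.

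With ibrutinib, the fitted log2 fold change of *Nipa1* was 2.27 in repeat peptide cells (4.83-fold) and 1.24 in single peptide cells (2.37-fold), and that of *Pard6b* in single peptide cells was 0.93 (1.91-fold). These 3 differences chose the genes. *Nipa1* and *Pard6b* held ranks 1 and 2 by size among the 43 genes called higher in single peptide cells (0.351% of those tested were called higher, 2.69% lower and 3.04% in all). The genes next below were *Runx1* (0.89), a transcription factor of T cell development, *Tspan32* (0.89), a tetraspanin, and *Selenop* (0.83), a selenium carrier. In repeat peptide cells *Nipa1* held rank 33 among 491 genes called higher, a list led by *Parvb* (6.32), *Sorcs2* (5.59), *Kirrel* (4.80), *Acvrl1* (4.64) and *Trim30c* (3.87). There 4.01% of the tested genes were called higher, 1.92% lower and 5.92% in all. A gene was called when its adjusted p-value was under 0.05, its log2 fold change was above 0.2 in size and its normalized counts averaged 50 or more. Within the experiments that gave both libraries, ibrutinib over DMSO was 4.43, 5.34, 3.64 and 5.10-fold for *Nipa1* in repeat peptide cells and 1.88, 2.52, 2.26 and 2.28-fold in single peptide cells (A to D). For *Pard6b* in single peptide cells the folds were 1.99, 1.93, 1.53 and 2.05.

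The rise of *Pard6b* in repeat peptide cells was not used to choose it. It was 0.27 ± 0.174 (log2 fold change ± SE, 1.20-fold, 5 against 4 libraries), which did not pass the threshold (edgeR quasi-likelihood test, adjusted p = 0.395), and its approximate interval of 2 standard errors ran from -0.08 to 0.62. Within experiments the folds were 1.02, 1.58, 1.02 and 1.32, higher with ibrutinib in 4 of 4 but close to 1 in A and C.

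Whether repeat stimulation itself moved the genes was asked by comparing repeat with single peptide cells. These comparisons share the single peptide libraries with the contrast that chose the genes, and those of *Nipa1* share all of their libraries with contrasts that did. The differences of *Nipa1* are therefore given as descriptions, without a test. The choice favoured low single DMSO and high single ibrutinib values, and for *Nipa1* also low repeat DMSO and high repeat ibrutinib values. *Nipa1* was 3.38-fold lower in repeat than in single peptide cells with DMSO (log2 fold change -1.76 ± 0.191), and lower in repeat cells in 4 of 4 experiments. In this comparison 47.0% of all tested genes were called, 22.8% higher and 24.2% lower, so a call alone was common. With ibrutinib on both sides *Nipa1* was 1.66-fold lower in repeat cells (-0.73 ± 0.173), where 38.4% of the tested genes were called, 18.7% higher and 19.6% lower. *Pard6b* did not differ past the threshold between the DMSO groups (0.16 ± 0.174, adjusted p = 0.47 by edgeR), with an approximate interval from -0.19 to 0.50. With ibrutinib it was 1.43-fold lower in repeat than in single peptide cells (-0.51 ± 0.171, edgeR adjusted p = 0.0218), and within experiments the repeat cells had 0.691, 0.847, 0.633 and 0.673 of the single peptide level. High single ibrutinib values of *Pard6b* were favoured by the choice, and so was this direction, which the p-value does not allow for. The call of this difference was lost without the repeat ibrutinib library of experiment C (adjusted p = 0.0621 by edgeR) or without any of the single ibrutinib libraries of A (0.0827), B (0.0658) and D (0.0568). Seen as levels, ibrutinib in repeat peptide cells added 161% of the gap in mean normalized count between the DMSO groups for *Nipa1*, so that the repeat ibrutinib mean was 1.43 times the single DMSO mean.

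**Figure D2:**
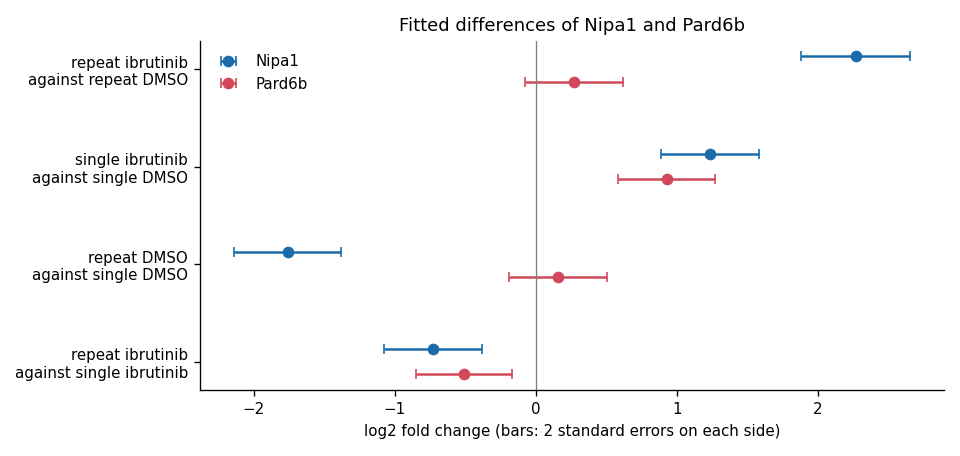
Fitted log2 fold changes (horizontal axis) of *Nipa1* (blue) and *Pard6b* (red) in 4 comparisons. Points are fits over the 18 libraries and bars span 2 standard errors on each side. *Nipa1* stands at 2.27 and 1.24 with ibrutinib and at -1.76 and -0.73 in repeat against single cells, and the bars of *Pard6b* cross 0 for repeat ibrutinib (0.27) and repeat DMSO (0.16). The ibrutinib values other than that of *Pard6b* in repeat cells chose the genes, so their bars are no test against 0. The values of *Nipa1* in repeat against single cells come from the same libraries.

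The genes of the NIPA family did not share 1 profile. Of 6 listed, 4 were tested, and *Nipal2* and *Nipal4* were at or near 0 TPM. *Nipal1* and *Nipal3* rose with ibrutinib in repeat peptide cells, so that 2 of the 3 other tested genes were called higher and 0 lower, where 4.01% of all tested genes were called higher. The median log2 fold change of these 3 was 0.56, against 0.004 over all tested genes, and 3 genes are too few to read a share from. *Nipal1*, a magnesium transporter of the Golgi region, had 140.0 to 198.9 normalized counts in repeat DMSO and 258.3 to 390.5 in repeat ibrutinib cells, without overlap (0.89 ± 0.15, edgeR adjusted p = 0.00148). *Nipal3* had 2051 to 2926 and 3066 to 4477 (0.56 ± 0.127, adjusted p = 0.0112), and its call was lost without the repeat DMSO library of experiment D (0.49, adjusted p = 0.0549 by edgeR). *Nipa2*, the closest relative and direct neighbour of *Nipa1*, stood at -0.05 ± 0.0989 (edgeR adjusted p = 0.803). In single peptide cells the 3 relatives were within 0.17 of 0, at 0.10 for *Nipa2*, 0.17 for *Nipal1* and 0.01 for *Nipal3*, and none was called (edgeR adjusted p from 0.692 to 0.991). The ibrutinib effect in repeat cells exceeded that in single peptide cells by 0.72 for *Nipal1* and 0.55 for *Nipal3*, and neither difference passed the test of the difference itself (adjusted p = 0.109 and 0.163 by edgeR). Between the DMSO groups *Nipal1* (-1.88) and *Nipal3* (-0.74) were lower in repeat cells, like *Nipa1*, and *Nipa2* was higher (0.35, edgeR adjusted p = 0.00635). That comparison shares the repeat DMSO libraries with the ibrutinib comparison. Per length, *Nipa1* was the lowest of the 4 tested genes in all 4 groups, at 0.698 TPM in repeat DMSO cells, where *Nipal1*, *Nipal3* and *Nipa2* had 2.24, 23.4 and 24.4 TPM.

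Of 14 other genes for magnesium transport 12 were tested. With ibrutinib 0 of the 12 were called in either kind of culture, where 5.92% (repeat) and 3.04% (single) of all tested genes were called, so that the count does not set the list apart. Their medians were -0.15 and 0.08, against 0.004 and 0.01 over all tested genes. Between the DMSO groups, where 22.8% of all tested genes were called higher and 24.2% lower, 3 were higher in repeat cells, *Tusc3* (1.22), *Cnnm4* (0.63) and *Mmgt1* (0.51), and 2 were lower, *Slc41a1* (-0.58), a sodium-magnesium exchanger, and *Trpm7* (-0.33), a magnesium-permeable channel with a kinase domain. Among BMP receptors, SMADs and their targets, 11 of 15 were tested, and 0 were called with ibrutinib, a count near the same 5.92% and 3.04% (medians 0.31 in repeat and 0.16 in single peptide cells). With the experiment as a block in the fit, *Smad1* (0.32), *Smad4* (0.38), *Smad5* (0.38) and *Smad7* (0.43) were called higher in repeat cells and *Smad4* (0.31) in single peptide cells. Of all 12255 tested genes that fit called 1694 in repeat and 1114 in single peptide cells, against 726 and 373 without the block. With 11 tested genes these counts are too few to read a share from. Between the DMSO groups the receptor genes *Acvr1* (1.94) and *Bmpr2* (1.58) and the target *Id2* (0.55) were higher in repeat cells, while *Smad1* (-0.64), *Smad4* (-0.82), *Smad5* (-1.11) and the inhibitory *Smad7* (-1.55) were lower. *Acvrl1*, a BMP receptor gene that the list did not hold, was among the genes with the largest rises in repeat cells named above. The 3 higher and 4 lower of 11 are shares near those of all tested genes in that comparison (22.8% and 24.2%).

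For the PAR complex and its GTPases 9 of 11 genes other than *Pard6b* were tested. With ibrutinib 1 of the 9 was called higher and 0 lower in repeat cells, where 5.92% of all tested genes were called, and in single peptide cells 0 were called higher and 1 lower, where 3.04% were called. Their medians were -0.21 and -0.03, against 0.004 and 0.01 over all tested genes. The gene called in repeat cells was *Prkcz*, which encodes the zeta form of aPKC that PAR6 proteins bind. It had 302.4 to 755.2 normalized counts with DMSO and 711.9 to 1609 with ibrutinib (1.33 ± 0.264, edgeR adjusted p = 0.00478). The groups overlapped through the repeat DMSO library of experiment B, which had 755.2 while the other 3 had at most 368.2. *Prkcz* was also lower in repeat than in single peptide cells with DMSO (-1.19, adjusted p = 0.000973 by edgeR), a comparison that shares those DMSO libraries. In single peptide cells its ibrutinib difference of 0.47 did not pass (adjusted p = 0.455 by edgeR). The gene called lower in single peptide cells was *Ect2*, which acts in cytokinesis and binds the PAR complex. It had 484.4 to 953.3 normalized counts with DMSO and 248.4 to 448.8 with ibrutinib (-1.15 ± 0.223, edgeR adjusted p = 0.00818), and it was far higher in repeat DMSO cells at 2218 to 2622. The block added *Ect2* (-0.45) to the called genes in repeat cells, where it raised all calls from 726 to 1694.

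Neither relative of *Pard6b* was called with ibrutinib in either culture. *Pard6a* differed by 0.03 and 0.27 and *Pard6g* by 0.06 and -0.21 in repeat and single peptide cells (edgeR adjusted p from 0.596 to 0.938). *Pard6a* was the highest of the 3 per length, at 5.93 to 8.64 mean TPM over the groups, and *Pard6g* was at 1.26 to 2.15. *Pard6g* was lower in repeat than in single peptide cells with DMSO (-0.90, edgeR adjusted p = 0.02), a call that was lost without the repeat DMSO library of experiment A (-0.79, adjusted p = 0.0607 by edgeR). *Prkci*, the other aPKC, stood at -0.21 and -0.03 with ibrutinib. Higher in repeat DMSO cells beside *Ect2* (1.71) were *Tiam1* (0.82), *Rac1* (0.47) and *Cdc42* (0.32). Of the PAR3 genes, *Pard3* and *Pard3b* had mean TPM values of at most 0.162 and 0.402. Thus the genes of the complex that were clearly present were those of PAR6, aPKC and the GTPases. Of 18 genes of the Crumbs and Scribble complexes and of the MARK kinases, which act in the same polarity network, 15 were tested and 0 were called with ibrutinib, again near the 5.92% and 3.04% of all tested genes (medians 0.00 in repeat and 0.15 in single peptide cells). Between the DMSO groups *Dlg2* (5.65), *Dlg3* (1.27) and *Mpp5* (0.75) were higher in repeat cells and *Patj* (-0.65), *Dlg4* (-0.62), *Llgl2* (-0.52), *Mark2* (-0.52) and *Mark4* (-0.41) were lower, beside 22.8% and 24.2% of all tested genes. With the block *Dlg2* was called lower with ibrutinib in repeat cells (-1.15). Over all lists, 3 genes other than *Nipa1* and *Pard6b* were called with ibrutinib in repeat cells and 1 in single peptide cells, beside 5.92% and 3.04% of all tested genes. With the block 9 and 2 were called. Among all 12255 tested genes the block raised the calls 2.33-fold to 1694 in repeat and 2.99-fold to 1114 in single peptide cells. These counts do not set the lists apart.

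**Figure D3:**
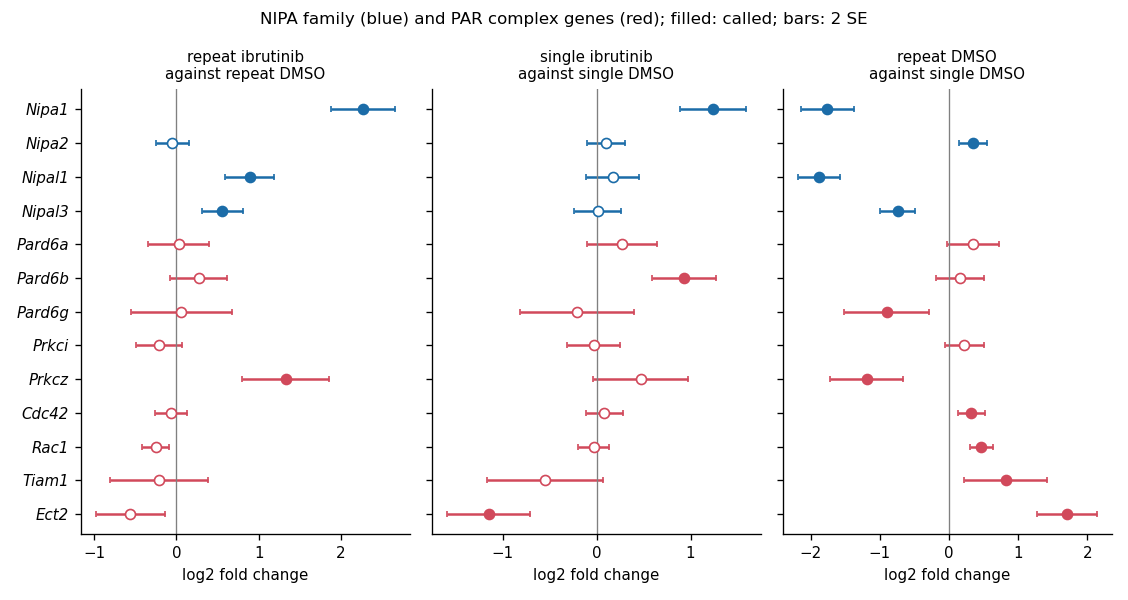
Log2 fold changes (horizontal axes, scaled per panel) of the tested NIPA family (blue) and PAR complex genes (red, without the scarce *Pard3b*) in 3 comparisons. Filled points were called, open points were not, and bars span 2 standard errors on each side. With ibrutinib in repeat cells *Nipa1* (2.27), *Prkcz* (1.33), *Nipal1* (0.89) and *Nipal3* (0.56) are filled, and in single peptide cells *Nipa1* (1.24), *Pard6b* (0.93) and *Ect2* (-1.15). The filled ibrutinib points of *Nipa1* and *Pard6b* are the values that chose these genes, so their filling is no test.

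Few neighbours of either gene were called with ibrutinib, as for genes in general (5.92% in repeat and 3.04% in single peptide cells). Of the 10 tested genes nearest to *Nipa1*, reaching 3980 kb away, 0 were called with ibrutinib in repeat peptide cells, and in single peptide cells *Atp10a* alone was called, in the opposite direction (-0.54). *Nipa2* and *Cyfip1*, a member of the actin-regulating WAVE complex 45.0 kb from *Nipa1*, belong with *Tubgcp5* to a block of 4 genes that is also kept together in humans. *Cyfip1* stood at -0.16 in repeat and -0.02 in single peptide cells with ibrutinib. Between the DMSO groups 22.8% of all tested genes were called higher and 24.2% lower. Of these 10 neighbours *Cyfip1* (1.42), *Nipa2* (0.35), *Atp10a* (0.57) and *Gas2* (2.99) were higher in repeat cells. *Herc2*, a ubiquitin ligase gene 30.2 kb away on the other side, was lower (-1.02), as was *Nipa1*. With 10 genes these counts are too few to read a share from. *Snhg14* and *Gm38393* had large fitted values with ibrutinib in repeat cells (2.04 ± 1.06 and 2.95 ± 1.43) but large errors, and were not called. The 10 tested genes nearest to *Pard6b*, reaching 391.0 kb, included 0 called with ibrutinib in either culture, a count near those shares. Between the DMSO groups 4 of them were lower in repeat cells, beside 24.2% of all tested genes, *Ripor3* (-1.72), *Dpm1* (-0.62), *Mocs3* (-0.60) and *Nfatc2* (-0.47), the last encoding a transcription factor downstream of the T cell receptor. No annotated gene overlaps *Pard6b*. The plus strand transcripts *A230056P14Rik* and *Gm15888* overlap *Nipa1*, and the library kit keeps the strand but the strand setting of the counting is not given in the sources used here. *A230056P14Rik* had at most 66 counts in a library, and at most 43, 66, 18 and 28 in the repeat DMSO, repeat ibrutinib, single DMSO and single ibrutinib groups.

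**Figure D4:**
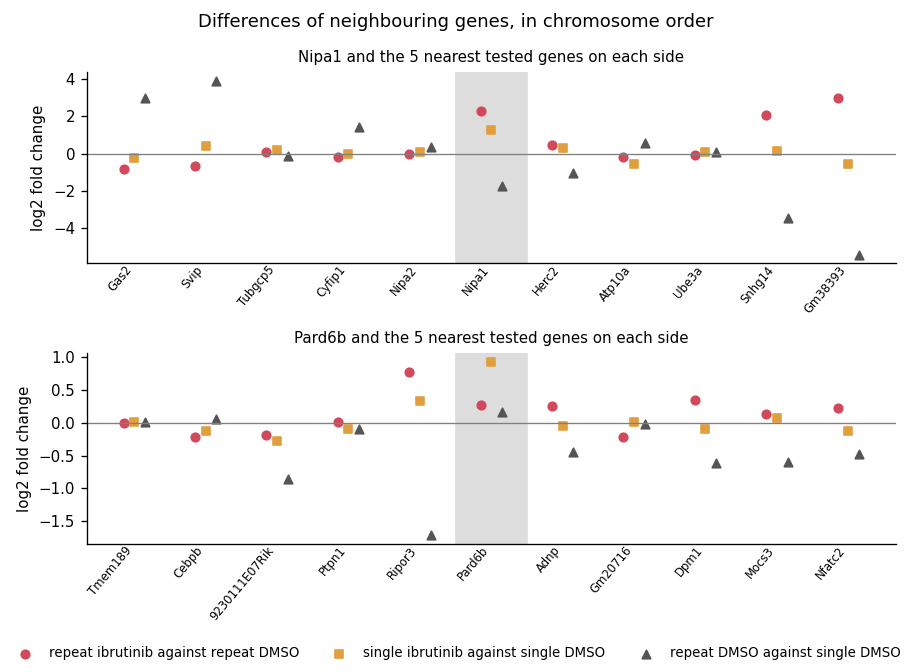
Log2 fold changes (vertical axes) of *Nipa1* and *Pard6b* (grey bands) and of the 5 nearest tested genes on each side, in chromosome order and not to distance. Red circles are ibrutinib in repeat cells, yellow squares ibrutinib in single peptide cells and dark triangles repeat against single DMSO. In single peptide cells *Nipa1* (1.24) and *Pard6b* (0.93) stand above all of the neighbours shown. Their choice by rise in that comparison favoured this, so it is no finding about the loci. In repeat cells the uncalled *Gm38393* (2.95) lies above *Nipa1* (2.27) and the uncalled *Ripor3* (0.77) and *Dpm1* (0.35) above *Pard6b* (0.27).

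Across the 18 libraries, *Nipa1* and *Pard6b* had a Pearson correlation of 0.593 and a Spearman correlation of 0.69 in log2 CPM (counts scaled to the library total). Both genes were chosen for their rise with ibrutinib in single peptide cells, so a positive correlation was favoured by the choice. The libraries share groups and experiments, and after removal of the group means the Pearson correlation was 0.072. Among 12254 genes ordered by correlation, *Pard6b* held rank 1710 for *Nipa1*, and *Nipa1* rank 160 for *Pard6b*. The 2 genes therefore had different nearest profiles.

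**Figure D5:**
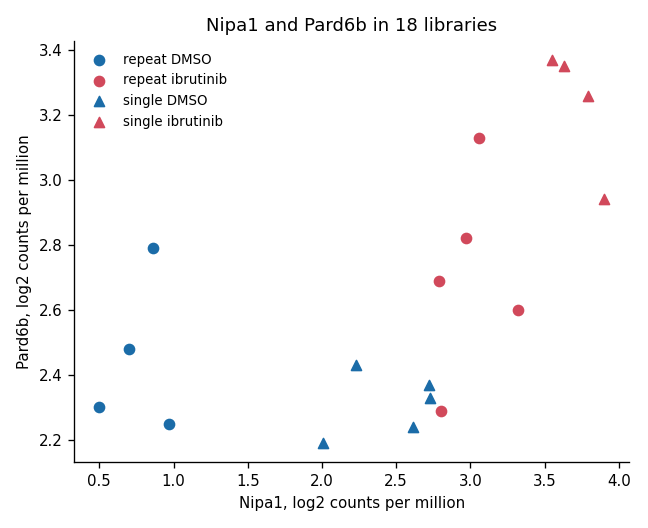
*Nipa1* (horizontal axis) against *Pard6b* (vertical axis) in log2 CPM, 1 point for each of the 18 libraries. Circles are repeat and triangles single peptide cells, blue is DMSO and red ibrutinib. The single ibrutinib libraries lie highest on *Nipa1*, and the repeat DMSO libraries lie far to the left without being lowest on *Pard6b* (Pearson correlation 0.593 over all libraries). The choice of both genes by their rise in single peptide cells favoured a positive correlation.

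The genes whose log2 CPM followed *Nipa1* most closely over the 18 libraries were *Pheta1* (Pearson correlation 0.902), an adaptor of endosomal traffic, *Slc10a3* (0.894), *Saraf* (0.888), a regulator of store-operated calcium entry, *Ssbp2* (0.885) and *Ppm1m* (0.883), a phosphatase. *Saraf* was abundant, with mean normalized counts of 9520 in repeat DMSO, 15850 in repeat ibrutinib, 19900 in single DMSO and 25640 in single ibrutinib cells. These genes were picked for following *Nipa1* over the same libraries, so their directions in the comparisons are fixed by the choice. By Spearman correlation 0 of these 5 remained among the first 5. The most opposed genes were *Sla* (-0.915), which encodes an adaptor that lowers T cell receptor signalling, *Sh2d2a* (-0.913), which encodes a T cell specific adaptor, and *Fam228a* (-0.902), which had under 25 mean normalized counts in every group. *Sla* had mean normalized counts of 11350, 6571, 6411 and 5466 in repeat DMSO, repeat ibrutinib, single DMSO and single ibrutinib cells. The directions of these opposed genes are likewise fixed by the choice.

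*Pard6b* was followed most closely by *Fbxo25* (0.844), *Il7r* (0.832), *Ctnnb1* (0.79), *Tbc1d4* (0.785) and *Lrrc1* (0.778), of which 3 remained among the first 5 by Spearman correlation, and whose directions are likewise fixed by the choice. *Il7r* encodes the receptor chain for IL-7, a cytokine of the culture medium. Its mean normalized counts were 3681 in repeat DMSO, 5691 in repeat ibrutinib, 3588 in single DMSO and 5819 in single ibrutinib cells, with fitted ibrutinib differences of 0.63 and 0.70 in repeat and single peptide cells. Its deviations from the group means correlated with those of *Pard6b* at 0.759 over 18 libraries, the highest of the 5 genes. For *Fbxo25*, *Ctnnb1*, *Tbc1d4* and *Lrrc1* this was 0.415, 0.686, 0.531 and 0.317. All were picked over these same libraries, so this is no separate support. *Ctnnb1* encodes beta-catenin, *Tbc1d4* a regulator of vesicle traffic and *Lrrc1* a relative of the polarity protein Scribble. Opposed to *Pard6b*, again with directions fixed by the choice, were *Lif* (-0.851), a cytokine gene, *Casp8* (-0.81), which encodes the caspase of death receptors, and *Relb* (-0.783), an NF-kappaB gene. *Lif* had mean normalized counts of 204.3 in single DMSO and 14.92 in single ibrutinib cells, and in the former group the library of experiment C had 535.3 against 112.9 to 130.0 in the others.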

How the data were processed

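RNA-seq was analysed in 18 libraries. The authors trimmed the reads with Trim Galore, aligned them by STAR within RSEM 1.3.1 (GRCm38, Ensembl genes), and deposited expected counts (RSEM's estimates of reads, often fractional) and TPM values (scaled to gene length and library total). Deposited FPKM values were not used, and effective lengths served only in an alternative. The submitters' processing notes also list SAMtools 1.10, R 4.0.3 and DESeq2 1.30.0.

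Expected counts were rounded. Of 45706 genes 45143 matched GENCODE M21, and the 27903 protein-coding or lncRNA genes entered R 4.3.3 with edgeR 4.0.16 (filterByExpr, TMM, robust glmQLFit, glmQLFTest, 1 fit of 4 groups, Benjamini-Hochberg adjustment over 12255 genes). Standard errors are the log2 fold change over the root of F. Calls required an adjusted p-value under 0.05, a log2 fold change above 0.2 in size and normalized counts averaging 50 or more. Likeness used log2 CPM with a prior count of 2. Promoters and coordinates were read with Python 3.11.15. Libraries held a median of 27420965.5 expected counts in total, so counting error is small beside the spread between cultures except for genes with few reads. Libraries of a group differed by more than sampling noise (chi-square over its degrees of freedom from 28.61 to 224.7), so none was a copy. Nothing in the labels says that the cultures of a group came from separate animals, so p-values measure the spread between these samples.

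Libraries were paired by the text of the labels' genotype entry, called the experiment here although no label does so, because libraries that share it varied together. Deviations from the group means correlated at 0.16 to 0.494 (median 0.325) in all 24 pairs of the same experiment. In 97 other pairs they correlated at -0.44 to 0.404 (median -0.0765), so the ranges overlap. The main fit has no block because the study's methods name none.

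*Nipa1*, *Pard6b* and the gene lists were chosen with earlier results of these data known. Named genes are the 2 genes, the first 5 by rise in each ibrutinib comparison, the NIPA and PAR6 genes, list members called in a comparison, the 5 most and 3 least correlated genes, and called neighbours among the 5 nearest tested genes on each side. Uncalled neighbours and uncalled or scarce list genes are named for context after their values were seen. Scripts were tested on simulated counts. Alternatives were DESeq2 size factors, DESeq2's Wald test (1.42.0), no filter, only the compared groups, all gene types, an effective length offset, the block and each library left out in turn. A test of transcript length was not run because each gene has 1 transcript.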

Additional observations from a re-analysis of the deposited data

Results flagged for a closer look

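In 100 groups of 25 named genes, a library stood far from the rest of its group in 5, and chance flags about 1 in 20 groups. None of these was a group of *Nipa1* or *Pard6b*. *Prkcz* had 755.2 normalized counts in the repeat DMSO library of experiment B, against 302.4 to 368.2 in the other repeat DMSO libraries. *Lif* had 535.3 in the single DMSO library of experiment C, against 112.9 to 130.0 in the others of that group. *Ect2* had 2622 in the repeat DMSO library of experiment A, against 2218 to 2239. *Pheta1* had 257.1 in the repeat ibrutinib library of experiment E, against 151.1 to 168.4. *Fam228a* had 0.937 in the single ibrutinib library of experiment B and 0 in the others.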

How the results depend on the processing

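The directions of *Nipa1* and *Pard6b* were kept in all 4 comparisons under all 25 alternatives. The differences that chose the genes, and those of *Nipa1* between stimulations, rest on values that the choice favoured. Their kept directions are therefore no separate support. The calls of all tested *Pard6b* differences but 1 were kept too. The lower *Pard6b* in repeat than in single ibrutinib cells lost its call without the filter on low counts (-0.50, adjusted p = 0.0606 by edgeR) and in a fit of only the compared groups (-0.48, 0.0548), and it ranged from -0.61 to -0.42 with each library left out (adjusted p from 0.00809 to 0.0827). The choice of *Pard6b* favoured this direction, which these p-values do not allow for. *Pard6b* with ibrutinib in repeat cells ranged from 0.15 to 0.39 with each library left out and passed in none of these fits (edgeR adjusted p from 0.213 to 0.685). With the experiment as a replicate block the list genes called besides both members numbered 9 instead of 3 in repeat and 2 instead of 1 in single peptide cells. The calls among all 12255 tested genes rose 2.33-fold to 1694 and 2.99-fold to 1114, and no call of a tested *Pard6b* difference changed. The correlation of *Nipa1* with *Pard6b* was 0.072 in deviations from group means and 0.449 in log2(TPM + 0.1). The counts of all called genes moved more: the 726 with ibrutinib in repeat cells became 464 (only the compared groups), 1694 (block), 1107 (DESeq2's Wald test), and 354, 393 and 478 without repeat DMSO D, repeat DMSO C or repeat ibrutinib A. The 373 in single peptide cells became 181, 1114 and 601, and 198, 239, 131, 205 and 152 without single DMSO C or D or single ibrutinib A, B or D. Leaving out libraries for the named relatives was chosen after seeing the data. *Pard6a* passed between the DMSO groups without single DMSO D (0.51, edgeR adjusted p = 0.0202) and *Nipa2* between the ibrutinib groups without single ibrutinib A (0.29, 0.049). The causes were not tested. At 37 to 74 reads, counting error limits *Nipa1* in repeat DMSO cells.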
